A study of Mus musculus with 16 samples.

Results

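The 8 interferon regulatory factor genes Irf1, Irf2, Irf3, Irf4, Irf5, Irf7, Irf8 and Irf9 encode transcription factors of 1 family, and all 8 were found by symbol among the 24116 genes of a count table from sorted mouse spleen dendritic cells. Dendritic cells (DCs) are the antigen-presenting cells of the immune system. RNA was sequenced from 16 libraries that fall into 8 groups of 2, made by 4 sorted subsets and 2 genotypes. The genotypes are CKO, described by the submitters as Etv6-deficient, and WT, and Etv6 encodes a transcription factor of the ETS family. The subsets carry the labels Dec205, a receptor found on cross-presenting classical DCs (cDC1), pDC for plasmacytoid DCs, and Esamhi and Esamlo for classical DCs of the cDC2 kind with high or low surface ESAM. The sources used here do not give the Cre driver, the deleted exons, or the age, sex and number of the mice. The labels do not tie libraries to animals. The p-values below therefore set differences only against how far the 2 libraries of a group lie apart, a spread that may be technical. Unless stated, that spread was pooled over the 8 groups, although it was not alike in them. As a coefficient of variation over the tested genes, it ran from 12.8% in Esamhi WT to 41.5% in Dec205 WT.

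Interferon regulatory factors share a DNA-binding domain that reads GAAA repeats in the promoters of interferon-responsive genes. Irf3, Irf5 and Irf7 carry signals from nucleic acid sensors to interferon and cytokine genes, Irf9 binds DNA for the complex that interferons activate, and Irf1 and Irf2 act on shared sites as activator and antagonist. Irf8 and Irf4 bind weakly alone and work with ETS or AP-1 partners, and they are known as the family members on which the development of cDC1 and pDC (Irf8) and of cDC2 (Irf4) depends.

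All 8 genes lie on different stretches of 6 chromosomes of the mm10 build, here placed by the RefSeq annotation of GRCm38.p6, the same assembly. Irf1 lies on chromosome 11 (53770014 to 53778374), Irf8 on chromosome 8 (120736358 to 120756694) and Irf2 on the same chromosome (46739745 to 46847458), all on the plus strand. The stretches just upstream of these 3 genes are printed because they hold matches to TTCNNNGAA, the gamma-activated site (GAS) of interferon-induced genes. Irf1 and Irf8 are the members called between CKO and WT in a cDC2 subset, Irf1 in both and Irf8 in Esamhi, and Irf2 carries the same letters without a called difference between genotypes. The Irf2 stretch runs from -229 to -14 and the other 2 from -250 to -1. Capitals mark matches to TTCNNNGAA, and each line reads 5′ to 3′ on the gene's strand.
Irf1, chr11:53769764-53770013, plus strand: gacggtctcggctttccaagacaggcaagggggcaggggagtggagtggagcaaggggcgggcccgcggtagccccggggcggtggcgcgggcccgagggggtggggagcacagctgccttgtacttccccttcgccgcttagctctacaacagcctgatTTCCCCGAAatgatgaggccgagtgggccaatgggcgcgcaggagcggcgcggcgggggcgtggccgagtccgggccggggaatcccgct
Irf8, chr8:120736108-120736357, plus strand: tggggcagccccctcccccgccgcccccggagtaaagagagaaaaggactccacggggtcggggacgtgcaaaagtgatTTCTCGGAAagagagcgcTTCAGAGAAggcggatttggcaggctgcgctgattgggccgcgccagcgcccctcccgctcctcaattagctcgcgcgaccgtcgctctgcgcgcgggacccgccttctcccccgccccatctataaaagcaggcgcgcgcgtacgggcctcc
Irf2, chr8:46739516-46739731, plus strand: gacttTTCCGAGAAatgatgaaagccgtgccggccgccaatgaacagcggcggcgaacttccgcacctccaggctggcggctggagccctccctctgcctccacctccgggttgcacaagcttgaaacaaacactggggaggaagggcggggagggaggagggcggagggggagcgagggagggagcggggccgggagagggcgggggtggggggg
The Irf1 match lay at -90 to -82 from the annotated start. Irf8 had 2 matches, at -171 to -163 and at -153 to -145, and the match in Irf2 lay at -224 to -216. RefSeq windows of 250 bases before to 50 bases after a start were available for all 8 members. Irf1, Irf8 and Irf9 had 2 windows each and the other members 1 each. The matches of Irf1 and of Irf8 lay in 1 of their 2 windows, and the other window had none. TTCNNNGAA, searched on both strands, occurred in 8.30% of all 32851 such windows. The core of the interferon-stimulated response element, searched as GAAA and GAAA with any 2 bases between them (3.44% of windows), was found in the Irf2 window alone, at -241 to -232. The composite ETS and IRF sequence, searched as GGAA and GAAA with any 2 bases between them (2.72% of windows), was likewise found in Irf2 alone, at -247 to -238, where it overlaps the response element match. The ETS sequences CCGGAAGT (3.89% of windows) and CCGGAA (14.9%) and the AP-1 sequence TGANTCA (7.81%) had no match in the window of any member. A match is a description of letters and shows no binding.

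The libraries held 14434287 to 20709265 counts. Single markers followed the labels, with levels in CPM (counts scaled to the TMM-adjusted library size). Xcr1, a chemokine receptor of cDC1, had 1228 to 1786 CPM in Dec205 libraries and at most 51.3 elsewhere. Siglech, a pDC lectin, had 5409 to 5977 in pDC libraries and at most 6.82 elsewhere. Esam had 131 to 151 in Esamhi and at most 33.2 elsewhere. The sum of 12 cDC2 markers set the labels less apart. It was 3263 to 3510 CPM in Esamhi, 3084 to 3636 in Esamlo, 2230 to 2452 in pDC and 509 to 626 in Dec205 libraries. Etv6 itself had 205 and 219 CPM in Dec205 CKO against 337 and 375 in Dec205 WT libraries, the only subset where a fall passed the test. In pDC its log2 fold change of CKO over WT was -0.026 (SE 0.10). Counts over the whole gene include any exon that remains, so they do not check the genotype labels. Xist ran from 114 to 355 CPM in the 8 CKO libraries and from 0 to 1.44 in the 8 WT libraries, and the Y-linked Ddx3y from 0.0528 to 1.95 in CKO and from 104 to 222 in WT. Sex therefore coincided with genotype in all 16 libraries, and for every difference between CKO and WT below the effects of genotype and sex cannot be told apart. In such bulk samples, fewer cells of a type and less RNA per cell cannot be told apart either.

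Compared per kilobase of transcript, the family was led by Irf8 in pDC and Dec205 cells and by Irf5 in both Esamhi groups and Esamlo WT, while Irf1 had the highest mean in Esamlo CKO. On that scale Irf8 averaged 2335 ± 51.0 CPM per kb in pDC CKO and 2339.7 ± 73.3 in pDC WT, and 1479 ± 92.2 in Dec205 CKO and 1307 ± 56.5 in Dec205 WT (SD, n = 2 each). It made up 69.2% to 69.9% of the summed level per kb of the 8 genes in the 4 pDC libraries, 64.7% and 64.6% in Dec205 CKO and 59.6% and 58.1% in Dec205 WT. In Esamhi libraries its part was 7.49% and 6.51% in CKO against 4.56% and 4.095% in WT. Irf5 averaged 205 ± 5.54 CPM per kb in Esamhi CKO and 218 ± 6.48 in Esamhi WT, ahead of Irf1 at 168 ± 12.8 in CKO and 91.2 ± 4.70 in WT. In Esamlo CKO, Irf1 had 205 and 196 and Irf5 171 and 198 CPM per kb, so Irf5 was just ahead in replicate 2. Exons of Irf1 share 100 bases with Gm17334 and those of Irf3 share 8 bases with Bcl2l12, both on the opposite strand, and reads in those stretches cannot be assigned to either gene of a pair.

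**Figure D1:**
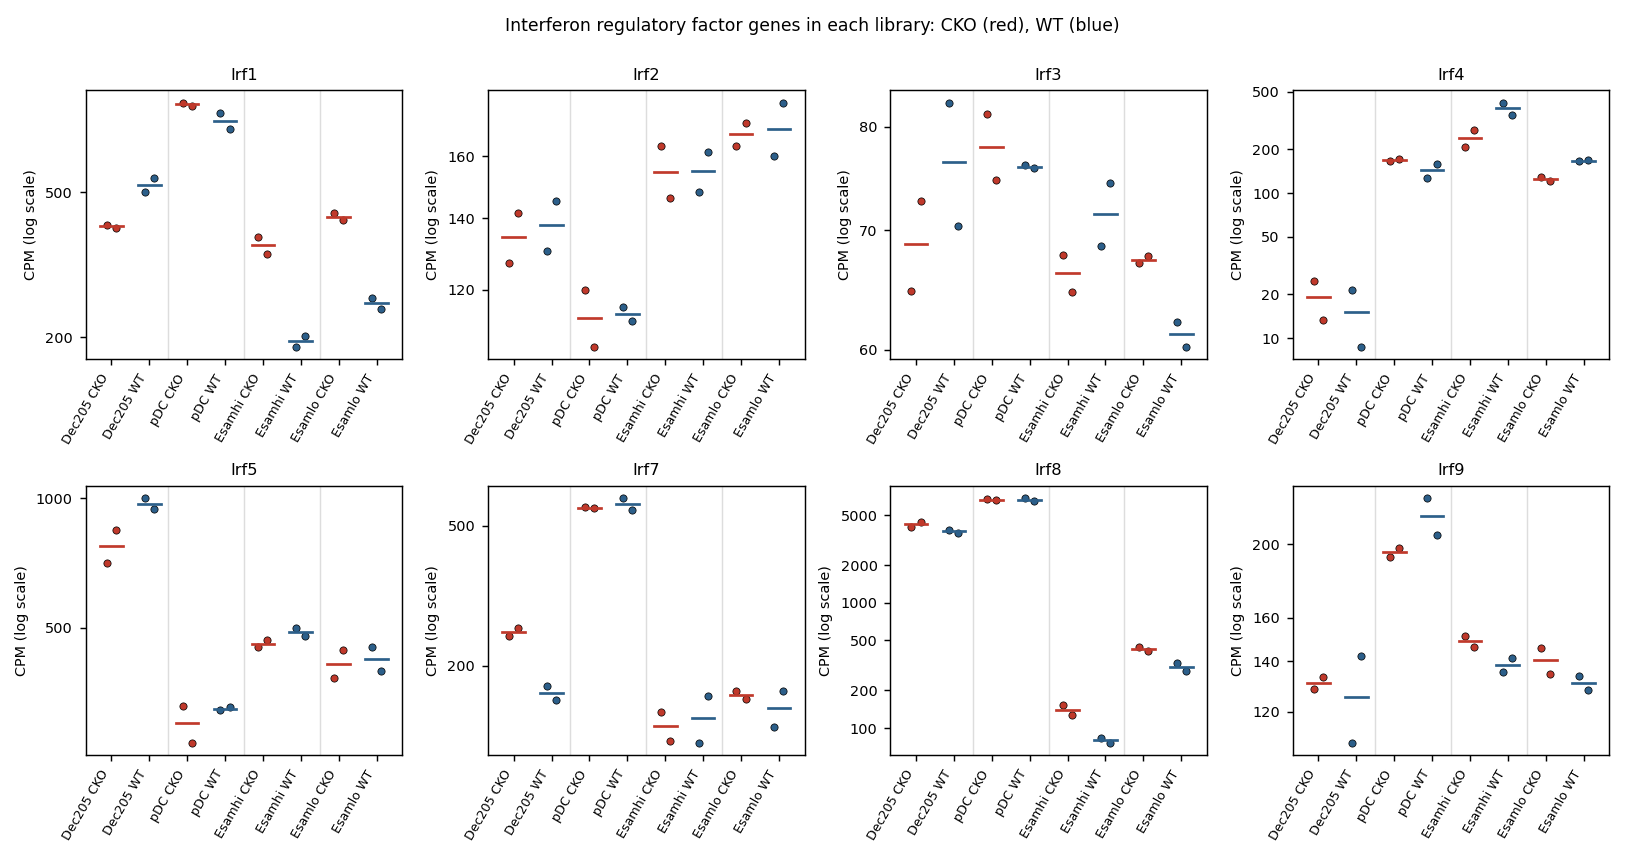
Level of each of the 8 family members in every library, in CPM on log axes that differ in range between panels. Points are libraries, bars group means of 2 libraries, CKO in red and WT in blue, ordered Dec205, pDC, Esamhi and Esamlo. Irf8 spans from 76.1 CPM in an Esamhi WT library to 6809 CPM in a pDC WT library, while Irf3 stays between 60.2 and 82.6 CPM.

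Across subsets, 7 of the 8 members differed in CKO by the joint test over the 4 subsets (edgeR quasi-likelihood, adjusted p under 0.05), as did 58.4% of all 13790 tested genes, and in WT 7 of 8 differed, beside 61.7% of tested genes. Irf3 was the exception in both genotypes, with adjusted p = 0.252 in CKO and 0.0802 in WT. Of the 48 combinations of a member with a pair of subsets, 28 were called in CKO, 33 in WT and 26 in both, and those 26 had the same direction in both genotypes. In CKO, the members called were 6 of 8 for Dec205 over pDC (44.6% of all genes), 4 for Dec205 over Esamhi (38.3%), 5 for Dec205 over Esamlo (33.3%), 6 for pDC over Esamhi (45.6%), 6 for pDC over Esamlo (42.6%) and 1 for Esamhi over Esamlo (3.02%). The same pairs in WT gave 6 (47.6%), 4 (37.4%), 6 (34.2%), 7 (47.1%), 7 (45.7%) and 3 (5.81%). With library sizes left unscaled, the median of all genes shifted to -0.24 for Dec205 over pDC in WT, from 0 with TMM, and the share of called genes that were higher in Dec205 was 39.5% unscaled and 52.9% with TMM. The same share moved by over 10 points in 3 other pairs: to 36.1% from 47.0% for Dec205 over Esamlo in WT, to 40.1% from 52.0% for Dec205 over pDC in CKO and to 57.0% from 46.3% for pDC over Esamhi in CKO. No called difference of a member changed direction under any scaling.

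Irf8, on which cDC1 and pDC development depends, had the widest range of the 8 members. In pDC libraries it reached 6751 and 6545 CPM in CKO and 6809 and 6514 CPM in WT. In Dec205 libraries it had 4026 and 4397 CPM in CKO and 3836 and 3609 CPM in WT, so every Dec205 library was below every pDC library. The cDC2 subsets lay far lower, and there the genotypes separated. Esamhi libraries had 152 and 126 CPM in CKO against 83.1 and 76.1 CPM in WT. Esamlo libraries had 446 and 409.7 CPM in CKO against 331 and 287 CPM in WT. In WT, the pDC level was 83.7-fold above that of Esamhi (log2 difference 6.39, SE 0.12, edgeR quasi-likelihood adjusted p = 5.8e-12). The neighbours in this order also differed, by -0.84 for Dec205 over pDC (adjusted p = 1.38e-05), 3.59 for Dec205 over Esamlo (adjusted p = 6.7e-10) and -1.96 for Esamhi over Esamlo (adjusted p = 1.06e-06) in the same test, and all 6 pairs were called in both genotypes.

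In Esamhi cells Irf8 was 1.75-fold higher in CKO than in WT (log2 fold change 0.80, SE 0.10, edgeR adjusted p = 0.00149), with both CKO libraries above both WT libraries. The Esamlo change was smaller, 0.47 on the log2 scale (SE 0.098), and missed the threshold at adjusted p = 0.0651 in edgeR. The CKO and WT libraries did not overlap there either. With 2 libraries per group, non-overlap arises easily without any effect, here and for every member and ratio below. Its share over all genes was not counted. DESeq2 called this Esamlo difference, with an adjusted p of 0.000456. Dec205 cells gave a log2 fold change of 0.18 (SE 0.098, edgeR adjusted p = 0.309), with both CKO libraries above both WT libraries, and in pDC cells it was -0.0029 (SE 0.097, adjusted p = 1), where the libraries of the genotypes overlapped. Averaged over the 4 subsets, Irf8 was higher in CKO by 0.36 (SE 0.049, edgeR adjusted p = 0.000699). The joint test of whether the genotype effect differed between subsets gave adjusted p = 0.0254 for Irf8 in edgeR. Leaving out any 1 of 7 libraries took that joint test past the threshold, with adjusted p from 0.0511 without pDC WT replicate 2 to 0.1005 without Esamhi WT replicate 2, and the others were both pDC CKO libraries, pDC WT replicate 1, Esamhi CKO replicate 1 and Esamhi WT replicate 1.

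Other cells, among them some that carry much Irf8, were followed by their markers in the same Esamhi libraries. Siglech stood at 0.814 and 1.52 CPM in CKO against 0.746 and 0.882 CPM in WT, near 0 beside its pDC level. The cDC1 marker Xcr1 had 9.97 and 14.8 CPM in CKO against 16.6 and 11.8 CPM in WT, and the 12 cDC1 markers summed to 821 in each CKO library against 1228 and 986 CPM in WT. The 12 pDC markers summed to 470.3 and 444 CPM in Esamhi CKO against 394 and 377 CPM in Esamhi WT libraries. Of the 12, 1, Cox6a2, was called higher in CKO in Esamhi (0.674% of all genes) and in Esamlo (0.457%), while Klk1 was at 0 in 3 of the 4 Esamhi libraries. B cells also express Irf8, and their 12 markers summed to 491 and 366 CPM in Esamhi CKO and 468 and 472 CPM in Esamhi WT libraries, while in Esamlo they summed to 1394 and 577 CPM in CKO and 389 and 526 CPM in WT. The 10 neutrophil markers summed to 102 and 112 CPM in Esamhi CKO and 21.2 and 32.0 CPM in Esamhi WT. Among them Csf3r reached 69.1 CPM in a CKO library, and no other exceeded 17.2 CPM (Ngp) in any CKO library. In Esamlo the same 10 markers summed to 106 and 104 CPM in CKO and 69.0 and 84.9 CPM in WT. The part of B cell, pDC and neutrophil RNA in the Irf8 and Irf1 differences of these subsets was not tested.

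Irf4, the cDC2 and plasma cell factor, followed another order across subsets. It was highest in Esamhi libraries, with 206 and 271 CPM in CKO against 421 and 348 CPM in WT, and the CKO and WT libraries did not overlap. Esamlo libraries had 129 and 122 CPM in CKO against 166 and 169 CPM in WT, again without overlap. In pDC libraries the values were 166 and 173 CPM in CKO and 127 and 159.7 CPM in WT, so there the CKO libraries were the higher ones. Dec205 libraries were lowest, with 24.8 and 13.4 CPM in CKO and 21.6 and 8.66 CPM in WT, and the genotypes overlapped. In WT, Dec205 was below Esamhi by 25.6-fold (log2 difference -4.68, SE 0.37, edgeR adjusted p = 7.43e-07), and pDC and Esamlo were not told apart (log2 difference -0.23, adjusted p = 0.582). Esamhi over Esamlo was 0.93 in CKO (SE 0.31, edgeR adjusted p = 0.171) and 1.197 in WT (SE 0.31, adjusted p = 0.0414). The WT call was lost without any 1 of the 4 Esamhi, the 4 Esamlo or the 2 pDC CKO libraries, with adjusted p up to 0.268.

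No Irf4 difference between CKO and WT was called when the spread came from all 16 libraries. Esamhi gave a log2 fold change of -0.69 (SE 0.31, edgeR adjusted p = 0.636, unadjusted p = 0.0446) and Esamlo gave -0.42 (SE 0.31, adjusted p = 0.871). With the spread taken from the 4 Esamhi libraries alone, the same Esamhi value had adjusted p = 0.0143. Dec205 gave 0.36 on the log2 scale (SE 0.35, edgeR adjusted p = 0.605), and leaving out Dec205 WT replicate 1 raised it to 1.16 with adjusted p = 0.0469.

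The ratio of Irf8 to Irf4 within a library does not depend on the scaling of libraries. Per kb, Irf8 was 1.23 and 0.780 times Irf4 in Esamhi CKO against 0.331 and 0.366 times in Esamhi WT libraries. In Esamlo the ratio was 5.81 and 5.64 in CKO against 3.33 and 2.85 in WT. Both cDC2 subsets thus had every CKO ratio above every WT ratio. In pDC libraries it was 68.2 and 63.2 in CKO and 89.7 and 68.2 in WT. In Dec205 libraries it was 272 and 551 in CKO and 298 and 698 in WT, and the genotypes overlapped.

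**Figure D2:**
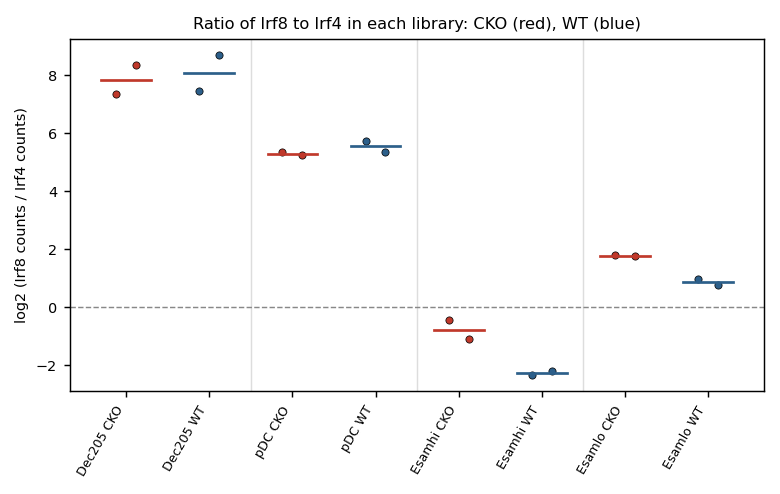
Log2 ratio of Irf8 to Irf4 counts in every library, not divided by length, by subset, with CKO (red) left of WT (blue). Points are libraries and bars group means of 2 libraries. In Esamhi the CKO libraries lie at -0.44 and -1.10 and the WT libraries at -2.34 and -2.19, and in Esamlo at 1.79 and 1.75 in CKO and 0.99 and 0.77 in WT.

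Irf1, the activator that interferon gamma induces, was the member with the most differences between genotypes. Esamhi libraries had 377 and 339 CPM in CKO against 188 and 202 CPM in WT. Esamlo libraries had 438 and 419 CPM in CKO against 257 and 239 CPM in WT. In both cDC2 subsets every CKO library was above every WT library, and in Dec205 the order was the reverse. Dec205 libraries had 406 and 400.4 CPM in CKO against 502 and 548 CPM in WT. In pDC libraries the values were 883 and 865 CPM in CKO and 824 and 749 CPM in WT, the CKO libraries again being the higher ones.

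By the test, Irf1 was 1.84-fold higher in CKO Esamhi cells (log2 fold change 0.88, SE 0.085, edgeR adjusted p = 0.000171) and 1.73-fold higher in CKO Esamlo cells (0.79, SE 0.084, adjusted p = 0.0006). It fell by 0.38 on the log2 scale in CKO Dec205 cells (SE 0.084, edgeR adjusted p = 0.0168). The pDC value of 0.15 (SE 0.083, edgeR adjusted p = 0.588) did not pass. The mean effect over the 4 subsets was 0.36 (SE 0.042, adjusted p = 0.000204), with opposite signs in Dec205 and the cDC2 subsets, and its effects differed between subsets in the joint edgeR test (adjusted p = 0.000408). With any 1 library left out, both cDC2 calls stood, with adjusted p up to 0.0178 in Esamlo. The Dec205 fall missed the threshold without Dec205 CKO replicate 1 (adjusted p = 0.0583), CKO replicate 2 (0.0579) or WT replicate 2 (0.113), with library sizes left unscaled (0.0502), and with the spread of the 4 Dec205 libraries alone (0.224).

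Irf1 was also compared between subsets within each genotype. In CKO, Dec205 was told apart neither from Esamhi (log2 difference 0.17, edgeR adjusted p = 0.127) nor from Esamlo (-0.09, adjusted p = 0.459), and Esamhi was not told apart from Esamlo (-0.26, adjusted p = 0.154). In WT the order ran pDC, Dec205, Esamlo, Esamhi from high to low, and each neighbour differed. Dec205 over pDC was -0.58 (SE 0.084, edgeR adjusted p = 8.2e-05), Dec205 over Esamlo 1.08 (SE 0.085, adjusted p = 9.75e-07) and Esamhi over Esamlo -0.35 (SE 0.084, adjusted p = 0.0297). The last of these calls was lost without any 1 of the 4 WT cDC2 libraries or the 2 pDC CKO libraries, with adjusted p up to 0.272.

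**Figure D3:**
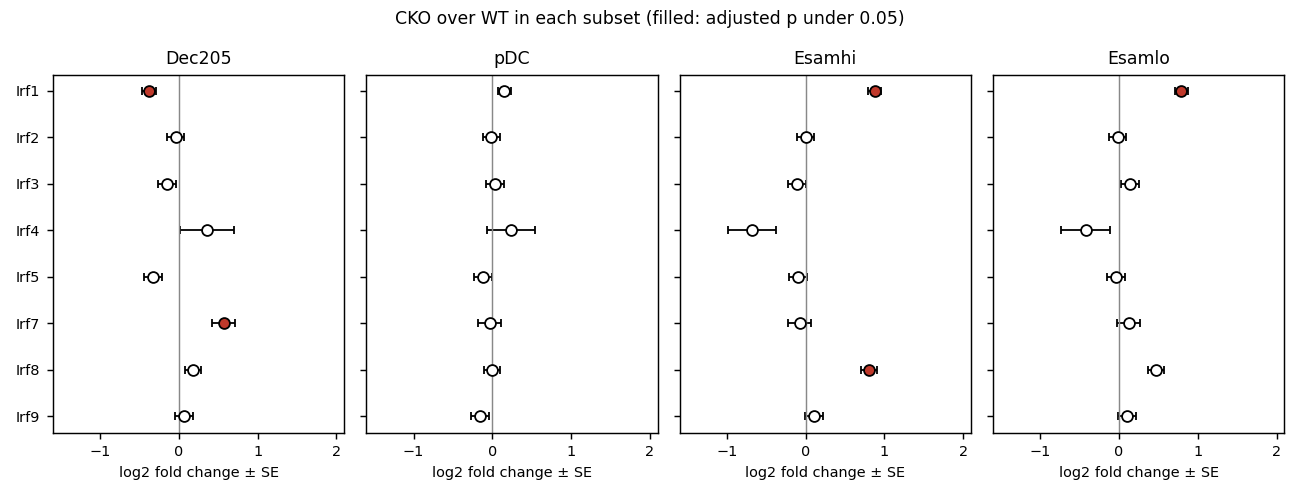
Log2 fold change of CKO over WT with its standard error from edgeR, for each family member in each subset; filled points passed an adjusted p under 0.05. Irf1 lies at 0.88 in Esamhi and 0.79 in Esamlo but at -0.38 in Dec205, Irf8 at 0.80 in Esamhi, and Irf7 at 0.57 in Dec205, while no point is filled in pDC.

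Irf2, which competes with Irf1 for its sites, varied little. It had 164 and 146 CPM in Esamhi CKO and 148 and 162 CPM in Esamhi WT libraries, and 164 and 172 CPM in Esamlo CKO and 160.0 and 179.7 CPM in Esamlo WT. Dec205 libraries had 127 and 142 CPM in CKO and 130.4 and 145 CPM in WT, and pDC libraries 119.8 and 106 CPM in CKO and 116 and 112 CPM in WT. The genotypes overlapped in all 4 subsets, and the log2 fold changes ran from -0.039 to -0.0011 with edgeR adjusted p from 0.898 to 1. Irf2 was lower in pDC than in Esamlo, with log2 differences of -0.57 in CKO (SE 0.11, edgeR adjusted p = 0.000866) and -0.58 in WT (SE 0.11, adjusted p = 0.000757), and lower in pDC than in Esamhi, with -0.46 in CKO and -0.44 in WT.

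Of the members that sensors activate, Irf7, the driver of interferon alpha production in pDC, was highest in pDC. Its pDC libraries had 563 and 562 CPM in CKO and 597 and 553 CPM in WT. Esamhi libraries had 148 and 122 CPM in CKO and 121 and 164 CPM in WT, and Esamlo libraries 170.2 and 161 CPM in CKO and 134 and 169.8 CPM in WT. In these 3 subsets the genotypes overlapped. Dec205 libraries had 244 and 255 CPM in CKO against 176 and 160.4 CPM in WT and did not overlap. Irf7 was 1.49-fold higher in CKO there (log2 fold change 0.57, SE 0.15, edgeR adjusted p = 0.0363).

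Of the 5 calls of a member between CKO and WT within a subset, that of Irf7 in Dec205 was lost under the most alternatives, 7 of 23. It was lost without Dec205 CKO replicate 1 (edgeR adjusted p = 0.0729), CKO replicate 2 (0.0905) or WT replicate 2 (0.162), and also without either Esamlo CKO library (0.05003 and 0.05027), and it missed the threshold with the spread of the 4 Dec205 libraries alone (0.0945) or with a replicate block within subsets (0.0973). Its CKO effect did not pass the joint test over subsets (adjusted p = 0.309). In the same Dec205 libraries the 12 pDC markers summed to 598 and 547 CPM in CKO against 345 and 358 CPM in WT, with 6 of the 12 called higher (3.44% of all genes), although Siglech itself was at 4.46 and 2.66 CPM in CKO and 1.75 and 1.01 CPM in WT. The 12 B cell markers summed to 941 and 493 CPM in Dec205 CKO against 224 and 217 CPM in Dec205 WT, with 4 of the 12 called higher (3.44% of all genes). Their part in the Irf7 and Irf1 differences of Dec205 was not tested. In CKO, Irf7 in Dec205 was above Esamhi by 0.88 on the log2 scale (SE 0.15, edgeR adjusted p = 0.00044) and above Esamlo by 0.59 (SE 0.15, adjusted p = 0.00769). In WT, Irf7 was 3.79-fold higher in pDC than in Esamlo (log2 difference 1.92, SE 0.15, edgeR adjusted p = 4.05e-07) and 4.03-fold higher than in Esamhi, and in WT Dec205 was told apart neither from Esamhi (adjusted p = 0.233) nor from Esamlo (adjusted p = 0.477).

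Irf5, which acts below MyD88 on inflammatory cytokine genes, was highest in Dec205 cells. Dec205 libraries had 706 and 846 CPM in CKO against 1001 and 945 CPM in WT without overlap, a log2 fold change of -0.33 (SE 0.12) that missed the threshold at edgeR adjusted p = 0.116. In pDC libraries it had 329 and 269.8 CPM in CKO and 322 and 327 CPM in WT. Esamhi libraries had 450.1 and 468 CPM in CKO and 499.6 and 479 CPM in WT, and Esamlo libraries 383 and 443 CPM in CKO and 451 and 396 CPM in WT. Only in Dec205 and Esamhi did every CKO library lie below every WT library. Outside Dec205 the log2 fold changes lay between -0.12 and -0.04, with none called. In WT, Dec205 exceeded pDC by 1.58 on the log2 scale (SE 0.12, edgeR adjusted p = 1.98e-07), and Esamhi and Esamlo were not told apart (0.21, adjusted p = 0.380).

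Irf3, the constitutive factor that TBK1 phosphorylates to start interferon beta transcription, had the narrowest range. It had 64.7 and 72.7 CPM in Dec205 CKO and 82.6 and 70.4 CPM in Dec205 WT, and 81.3 and 74.7 CPM in pDC CKO and 76.2 and 75.8 CPM in pDC WT. Esamhi libraries had 67.8 and 64.7 CPM in CKO and 68.6 and 74.4 CPM in WT, and Esamlo libraries 67.1 and 67.7 CPM in CKO and 62.2 and 60.2 CPM in WT. The CKO libraries lay below those of WT in Esamhi and above them in Esamlo, and overlapped with them elsewhere. The group means of log2 CPM spanned 0.23 across subsets in CKO and 0.32 in WT, the smallest span of the 8 members, and none of its CKO effects passed (log2 fold changes from -0.15 to 0.14, edgeR adjusted p from 0.467 to 1). In WT, Irf3 was called lower in Esamlo than in Dec205 (Dec205 over Esamlo 0.32, SE 0.11, edgeR adjusted p = 0.0453) and than in pDC (pDC over Esamlo 0.31, SE 0.11, adjusted p = 0.0392), and no pair was called in CKO. Of 22 alternatives, 15 ended the first call (adjusted p up to 0.309) and 12 the second (0.159), among them leaving out any 1 of the 4 Esamhi, the 4 Esamlo or the 2 pDC WT libraries, and for the first also Dec205 WT replicate 1. With library sizes left unscaled, the joint test across subsets called Irf3 in both genotypes, with adjusted p = 0.0129 in CKO and 0.0284 in WT. In WT it was also called by DESeq2 (0.0250) and without Dec205 WT replicate 2 (0.0464).

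Irf9, the DNA-binding subunit of the complex that interferons activate, was highest in pDC, with 192 and 198 CPM in CKO and 230.0 and 206 CPM in WT. Dec205 libraries had 129 and 134 CPM in CKO and 109 and 142 CPM in WT. Esamhi libraries had 151 and 146 CPM in CKO and 136 and 142 CPM in WT, and Esamlo libraries 146 and 135 CPM in CKO and 134 and 128 CPM in WT. The CKO libraries lay below those of WT in pDC, above them in both cDC2 subsets, and overlapped with them in Dec205. Its CKO effects were small, from -0.16 in pDC to 0.10 in the cDC2 subsets, and none was called (edgeR adjusted p from 0.732 to 1). In WT, pDC exceeded Esamlo by 0.73 on the log2 scale (SE 0.11, edgeR adjusted p = 0.000182), and the other 3 subsets were not told apart from each other (adjusted p from 0.369 to 0.803).

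Counted over the family, 2 of the 8 members were called between CKO and WT in Dec205, Irf7 higher and Irf1 lower, where 6.78% of all tested genes were called. None was called in pDC (1.85% of genes), where the lowest unadjusted p was 0.0924, for Irf1, 0 members had an unadjusted p under 0.05, and DESeq2 also called 0. In Esamhi 2 were called, Irf1 and Irf8, both higher (0.877% of genes called, 0.674% higher), and in Esamlo 1, Irf1, higher (0.551% called, 0.457% higher). On average over subsets 2 were called, Irf1 and Irf8, both higher (5.82% called, 3.92% higher), and the same 2 differed in their CKO effect between subsets by the joint test (2.44%). The median log2 fold change over the 8 members was 0.01 in Dec205, -0.01 in pDC, -0.04 in Esamhi and 0.11 in Esamlo, beside 0 to 0.01 over all tested genes.

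The CKO effect was then compared between pairs of subsets. For Irf1 the effect in Dec205 was below that in Esamhi by 1.26 (difference -1.26, SE 0.12, edgeR adjusted p = 0.000384; 1.91% of genes called), in Esamlo by 1.17 (-1.17, SE 0.12, adjusted p = 0.000528; 1.53%) and in pDC by 0.53 (-0.53, SE 0.12, adjusted p = 0.0355; 2.41%), all on the log2 scale. The pDC effect of Irf1 was also below that in Esamhi (-0.72, SE 0.12, adjusted p = 0.0097; 1.18%) and in Esamlo (-0.64, SE 0.12, adjusted p = 0.0286; 0.682%). For Irf8 the differences were -0.63 for Dec205 minus Esamhi (SE 0.14, edgeR adjusted p = 0.0419) and -0.81 for pDC minus Esamhi (SE 0.14, adjusted p = 0.0144). Of 22 alternatives, 13 ended the call of Irf8 for Dec205 minus Esamhi (adjusted p up to 0.180) and 3 that for pDC minus Esamhi (0.0797). For Irf1, 13 ended the call for Dec205 minus pDC (0.135), 9 that for pDC minus Esamlo (0.150), 3 that for pDC minus Esamhi (0.0644) and 0 the other 2 calls. No member was called for a difference of effect between Esamhi and Esamlo, where 0 of all 13790 genes were called by edgeR and 5 by DESeq2. The smallest unadjusted p among the members there was 0.0338, for Irf8.

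Around the family, 16 interferon receptor, JAK-STAT and feedback genes were followed. In Dec205, 2 of the 16 were higher in CKO, the interferon receptor chain Ifnar2 (0.59) and Stat2 (0.66), and 2 lower, Ifngr2 (-0.36) and Il10rb (-0.55), beside 3.44% of all genes higher and 3.34% lower. In pDC 1 of the 16, Usp18, which dampens interferon receptor signals, was called (1.00, edgeR adjusted p = 0.000917), beside 1.85% of all genes.

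**Figure D4:**
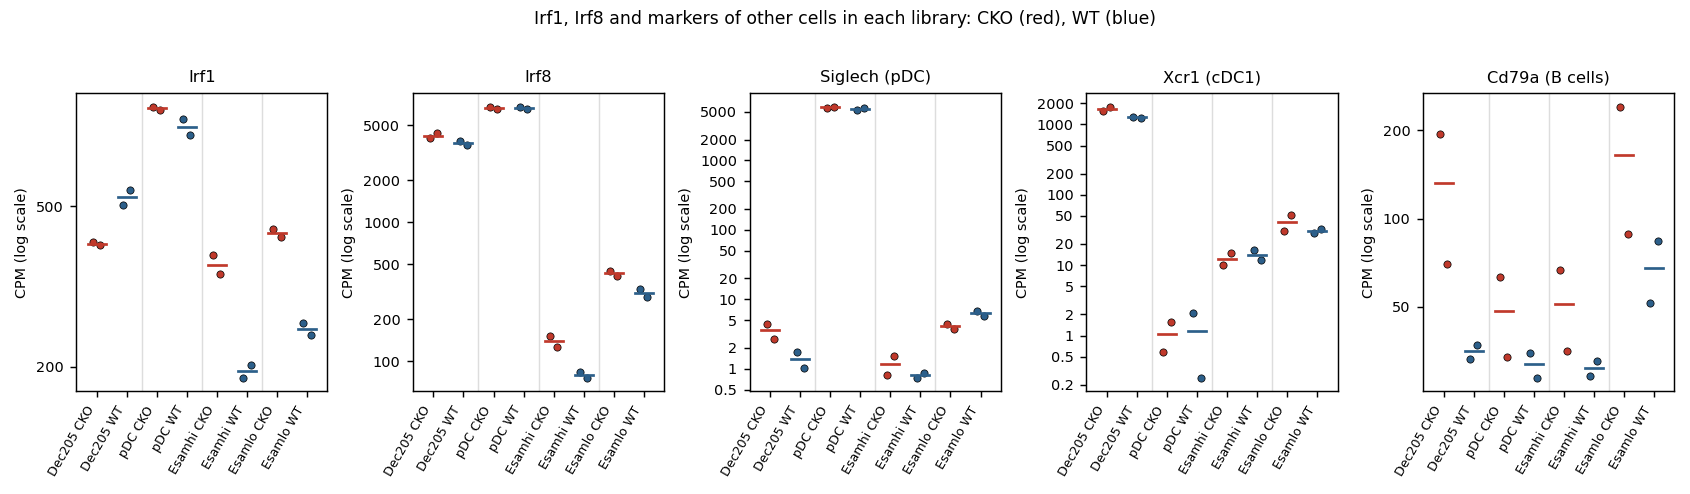
Irf1 and Irf8 in every library beside markers of pDC (Siglech), cDC1 (Xcr1) and B cells (Cd79a), in CPM on log axes that differ between panels; points are libraries, bars group means, CKO in red left of WT in blue. Irf1 is higher in CKO than in WT in Esamhi and Esamlo, while in Dec205 it lies at 400.4 and 406 CPM in CKO and 502 and 548 CPM in WT, and Siglech stays at or below 1.52 CPM in all Esamhi libraries.

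The interferon ligands were close to absent. All 18 listed genes had a row, 12 were at 0 in all 16 libraries, and Ifng, with at most 1.80 CPM, was the only one with enough counts to be tested. Among 23 sensors, adaptors and kinases that activate Irf3, Irf5 and Irf7, none was called in Esamhi or Esamlo. At most 4 called genes per list and comparison, those with the largest log2 fold change, are named here and below. In Dec205, Tmem173 (STING) was higher in CKO (0.58, edgeR adjusted p = 0.0267) and Tlr9 (-2.42), Traf3 (-0.91) and Tank (-0.52) lower. In pDC the RNA sensor Ddx58 was higher (2.31, edgeR adjusted p = 0.00321). None of 12 cofactors and modifiers that bind the family's proteins was called in any subset. Beside these lists, 6.78% of all genes were called in Dec205, 1.85% in pDC, 0.877% in Esamhi and 0.551% in Esamlo.

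Partners with which Irf4 and Irf8 bind DNA were called in Dec205, where 6.78% of all genes were called. The other subsets had none, but there only 1.85% (pDC), 0.877% (Esamhi) and 0.551% (Esamlo) of all genes were called. Of 11 such genes, Spib, an ETS factor of pDC and B cells, was higher in Dec205 CKO (76.1 and 52.6 CPM against 43.0 and 25.9 CPM in Dec205 WT; log2 fold change 0.91, SE 0.24, edgeR adjusted p = 0.0394), and Etv6 itself was lower there (-0.75, SE 0.10, adjusted p = 0.000996). In Esamhi and Esamlo none of the 11 was called. The closest was Junb in Esamhi (0.42, SE 0.089, adjusted p = 0.0502). Spi1, which encodes PU.1, had a log2 fold change of -0.03 in Esamhi (adjusted p = 1).

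No listed target gene of Irf1, Irf8 or Irf4 passed the test in the cDC2 subsets, where 0.877% (Esamhi) and 0.551% (Esamlo) of all genes did. At shares this low, 0 calls in a short list are no result about its members. Of 19 tested Irf1 target genes, 0 were called in Esamhi and 0 in Esamlo. Their median log2 fold changes were 0.33 and 0.25, beside 0 and 0.0064 over all tested genes. The closest in Esamhi were Cd274 (0.53, edgeR adjusted p = 0.0533) and B2m (0.33, adjusted p = 0.164), and in Esamlo Tap1 (0.47, adjusted p = 0.0728), all 3 chosen after their values were seen. In Dec205, where Irf1 was lower, Casp1 (0.68) and Psmb10 (0.51) were higher in CKO, and in pDC Psmb10 (0.45) was higher and Irgm1 (-0.75) lower. Of 15 Irf8 target genes none was called in Esamhi or Esamlo, with medians of -0.09 and 0.06. In Dec205 the genes named, at most 4 per list, were Cybb (1.85), Aim2 (0.89) and Ccr2 (0.70), higher, and Il12b (-1.32), lower. Of 10 Irf4 target genes, Ccr7 in Dec205 was the only one called (-0.89, adjusted p = 0.00997). Beside these lists, 3.44% of all genes were called higher and 3.34% lower in Dec205, and 1.47% and 0.377% in pDC.

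Targets of Irf7 and of the Irf9 complex were called mainly in Dec205 and pDC cells. In Dec205, 11 of 27 tested genes were higher in CKO (3.44% of all genes) and 2, Rsad2 and Adar, lower (3.34%), both of these named after their values were seen. Those with the largest changes were close to 0 in Dec205 WT: Rtp4 had 25.5 and 19.97 CPM in CKO against 0.759 and 0 CPM in WT, Oas2 20.8 and 25.9 against 1.90 and 0, and Ifit3 37.4 and 40.6 against 0 and 3.11. In pDC 5 were higher and none lower (1.47% and 0.377% of genes), among them Rtp4 with 13.5 and 21.7 CPM in CKO against 0.587 and 0.813 CPM in WT. Esamhi had 1 called, the chemokine gene Cxcl10 (39.2 and 30.8 CPM in CKO against 15.0 and 15.98 CPM in WT, log2 fold change 1.17, edgeR adjusted p = 0.0401), and Esamlo 0. Of all genes, 0.877% were called in Esamhi and 0.551% in Esamlo. Whether a list's count differed between subsets was not tested.

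Genes with a profile most like a member's over the 8 group means were ranked by the root mean square difference of centred log2 CPM, for the 4 members that spanned at least 2 on the log2 scale in WT. Closest to Irf8 was the chemokine receptor gene Cxcr3 (0.27), then F630111L10Rik (0.55) and Tlr12, a Toll-like receptor of mice (0.56). Cxcr3 averaged 209 CPM in pDC CKO and 146 in pDC WT but 3.24 in Esamhi CKO and 3.14 in Esamhi WT. Irf4 was most like St8sia1, a ganglioside sialyltransferase (0.38), Irf1 most like the arsenite methyltransferase gene As3mt (0.20), and Irf7 most like the polysialyltransferase gene St8sia4 (0.15). These likenesses rest on 8 points and describe these libraries only.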

How the data were processed

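RNA from sorted spleen DCs was made into libraries with the SMART-seq v4 kit, which marks no strand and uses no molecular identifiers, per the labels' protocols. The table holds raw counts per gene as deposited by the authors, made on the mm10 build with Bowtie2 2.2.9, Trimmomatic 0.36 and bcl2fastq per the submitters' processing notes. The sources used here name neither the counting tool nor its annotation. Groups were taken from the labels.

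Genes were filtered with filterByExpr (13790 of 24116 kept), scaled by TMM and fitted with edgeR 4.0.16 in R 4.3.3 by the robust quasi-likelihood test, with all 16 libraries and 8 groups in 1 fit (8 residual degrees of freedom). P-values were adjusted over all tested genes by the Benjamini-Hochberg method and called under 0.05. CPM used TMM-scaled library sizes, and log2 CPM a prior count of 2. A count of 3, taken as the floor, was 0.143 to 0.228 CPM. CPM per kb used the length of the longest principal GENCODE transcript, and positions and sequences came from RefSeq (GRCm38.p6). Alternatives were RLE size factors, unscaled libraries, no filter, DESeq2 1.42.0, 2 forms of replicate block, spreads from a subset or a genotype alone, and leaving out each library. Pairwise differences of the CKO effect were added after the joint test was seen.

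The members and gene lists were chosen with earlier results of these data known, and a few genes are not reported here. Genes named from the lists are at most 4 called genes per list and comparison with the largest log2 fold change, and any partner gene; likeness names the 3 nearest genes, of which 1 to 3 are printed. Other genes named were chosen after their values were seen. Of the marker lists not printed with the results, in Dec205 the numbers higher and lower in CKO were 0 and 1 of 12 for cDC1, 2 and 3 of 12 for cDC2, 2 and 0 of 8 for plasma cells, 1 and 1 of 10 for T cells, 1 and 0 of 7 for NK cells and 3 and 1 of 11 for monocytes, and 0 for macrophages and neutrophils. Of 17 other DC transcription factors, 2 were higher and 3 lower in Dec205 CKO, 2 were higher in Esamhi CKO and 0 were called elsewhere. Of all genes, 3.44% were higher and 3.34% lower in Dec205, and 0.674% higher in Esamhi. No group held duplicate libraries.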

Additional observations from a re-analysis of the deposited data

Results flagged for a closer look

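The effect of CKO on Irf1 differed between subsets, with adjusted p = 0.000408 in the joint edgeR test. The pairwise log2 differences that passed were -1.26 for Dec205 minus Esamhi, -1.17 for Dec205 minus Esamlo, -0.53 for Dec205 minus pDC, -0.72 for pDC minus Esamhi and -0.64 for pDC minus Esamlo. The Dec205 effect itself was negative and the cDC2 effects positive. Of 22 alternatives, 13 ended the call for Dec205 minus pDC, 9 that for pDC minus Esamlo and 3 that for pDC minus Esamhi.

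The effect on Irf8 also differed, with adjusted p = 0.0254 in the joint edgeR test. The pairwise log2 differences that passed were -0.63 for Dec205 minus Esamhi and -0.81 for pDC minus Esamhi. Of 22 alternatives, 7, each a single library left out, ended the joint call, 13 the call for Dec205 minus Esamhi and 3 that for pDC minus Esamhi.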

How the results depend on the processing

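The calls of Irf1 in Esamhi and Esamlo, of Irf8 in Esamhi, of both mean effects, of the Irf1 joint test and of Irf1 for Dec205 minus Esamhi and Dec205 minus Esamlo stood under every alternative run, and no called member changed sign. Among members called, library sizes left unscaled gave 1 of 2 in Dec205, 0 of 1 for Dec205 minus pDC and pDC minus Esamlo and 1 of 2 for Dec205 minus Esamhi. Without a filter Esamlo had 2 in place of 1. DESeq2 gave 2 in Esamlo, 2 for pDC minus Esamlo and 2 for Esamhi over Esamlo in CKO. The spread of the Dec205 libraries alone left 0 in Dec205, and that of WT alone left 1 for Esamhi over Esamlo. The cause was not tested.

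The replicate numbers gave no sign of pairing CKO with WT: same-numbered CKO and WT libraries of a subset correlated at -0.0692 to 0.0169 in their deviations. Of 28 pairs of groups, 2 were over 0.1, Esamlo with Esamhi in WT (0.116) and in CKO (0.109). Whether same-numbered libraries of a genotype share an animal or a sort was not tested, and the tests between subsets treat them as independent. With a replicate block over all libraries Esamlo had 2 members called. With a block within each subset Dec205 had 1, Dec205 minus pDC 0, pDC minus Esamlo 0 and pDC minus Esamhi 1.

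Leaving out 1 library at a time gave 0 to 3 members called in Dec205, 1 to 2 in Esamlo, 1 to 2 in the joint test of CKO effects, 0 to 1 for Dec205 minus pDC, 1 to 2 for Dec205 minus Esamhi, 0 to 1 for pDC minus Esamlo and 0 to 2 for pDC minus Esamhi. Between subsets it gave 1 to 3 for Esamhi over Esamlo in WT, 3 to 5 for Dec205 over Esamlo in CKO (3 without Esamlo CKO replicate 2) and 1 to 2 for Esamhi over Esamlo in CKO. The Irf8 call for pDC minus Esamhi was lost without Esamhi CKO replicate 1 (adjusted p = 0.0678), Esamhi WT replicate 2 (0.0797) or pDC CKO replicate 2 (0.0625), and that of Irf1 without Esamhi CKO replicate 1 (0.0622) or Esamhi WT replicate 1 (0.0644). Of 22 alternatives, 13 lost Irf1 for Dec205 minus pDC (adjusted p up to 0.135), among them every single library left out but Dec205 WT replicate 1, both Esamhi CKO libraries, Esamlo WT replicate 2 and pDC WT replicate 1. For pDC minus Esamlo 9 lost Irf1 (0.150), among them each Esamlo library, both pDC CKO libraries and pDC WT replicate 1. For Dec205 minus Esamhi 13 lost Irf8 (0.180), among them every library but Dec205 CKO replicate 2, Esamhi CKO replicate 2 and both Esamlo WT libraries.

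Over all genes, DESeq2 called 1712 in Dec205 in place of 935, 553 in pDC in place of 255, 301 in Esamhi in place of 121 and 248 in Esamlo in place of 76. With the spread of 1 subset alone the counts were 136 in Dec205, 91 in pDC, 578 in Esamhi and 126 in Esamlo, and with the block within subsets 169 in pDC, 66 in Esamhi and 48 in Esamlo. For the mean effect DESeq2 called 1348 in place of 802. In the joint test of CKO effects 337 genes were called, against 1085 by DESeq2 and 184 with the block within subsets. In the same order, Dec205 minus pDC had 333, 869 and 201, Dec205 minus Esamlo 211, 589 and 88, Dec205 minus Esamhi 263, 631 and 139, pDC minus Esamlo 94, 273 and 37, and pDC minus Esamhi 163, 377 and 85 genes called. Esamhi minus Esamlo had 0, 5 by DESeq2 and 1 without a filter. For Esamhi over Esamlo, DESeq2 called 781 in CKO in place of 416 and 1396 in WT in place of 801. Ranked over 16 libraries in place of 8 means, the nearest gene differed for Irf7. Leaving out 1 library gave 585 to 1328 genes called in Dec205, 176 to 286 in pDC, 44 to 153 in Esamhi and 28 to 107 in Esamlo. The fewest came without Dec205 WT replicate 2, pDC CKO replicate 2, Esamhi CKO replicate 1 and Esamlo WT replicate 2, in that order of subsets.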
